A study of Homo sapiens with 36 samples.

Results

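The CC chemokines described here are 9 genes, CCL1, CCL2, CCL3, CCL4, CCL5, CCL7, CCL20, CCL22 and CCL23, which were found by symbol and Ensembl identifier among the 57500 genes of the RNA-seq count files. The study measured RNA in THP-1 cells, a human monocytic line derived from a leukaemia, to ask how the nuclear receptors NR4A2 and NR4A3 bear on the response of monocytes to elevated CO2. The cells carried a non-targeting shRNA (shNT), an shRNA against NR4A2 (shNR4A2) or an shRNA against NR4A3 (shNR4A3). Each of these 3 lines was kept for 4 h at 5% or 10% CO2 in pre-equilibrated, pH-buffered medium, so that the 10% exposure was a buffered hypercapnia, and was either left in the basal state or given LPS, the endotoxin of Gram-negative bacteria, at 2.5 µg/ml for the last 2 h. This gave 12 conditions with 3 libraries each, 36 in all. Each shRNA was studied in 1 stable line made with lentivirus, every condition carried an shRNA, and the depletion of the receptors was partial, as the levels below show.

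CC chemokines are small secreted proteins with a pair of adjacent cysteines near the N terminus, and they draw leukocytes along a gradient by way of G protein-coupled receptors. Monocytes and macrophages are a main source of them, and bacterial products sensed through Toll-like receptors are among the known triggers of their transcription. CCL2 and CCL7 attract monocytes through CCR2, CCL3, CCL5 and CCL23 act on CCR1, CCL4 draws monocytes and T cells, CCL20 draws dendritic cells and Th17 cells through CCR6, CCL22 draws regulatory and Th2 cells through CCR4, and CCL1 acts on CCR8.

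The libraries held between 16171161 and 23929138 reads assigned to genes, with a median of 19639071. All 10 of the monocyte and myeloid markers looked at had a mean level of at least 1 TPM, and their summed level ran from 1145.3 to 2513.6 TPM without LPS and from 1083.8 to 2570.5 TPM with it. Of markers of other cells, 1 of 4 for T cells (TRAC, not CD3D, CD3E or CD2), 2 of 3 for B cells, 2 of 3 for NK cells, 1 of 3 for macrophages, 0 of 4 for epithelium and 0 of 3 for fibroblasts reached that mean, NKG7, a granule gene of NK cells, being the highest of those for lymphocytes at 44.9 TPM. NR4A2 was lower in shNR4A2 than in shNT cells in all 4 comparisons, by 0.91 to 1.67 on the log2 scale. NR4A3 was lower in shNR4A3 cells in 3 of 4 comparisons, by 0.82 to 2.47, and in the basal state at 10% CO2 its difference of -0.39 did not pass the test. Levels are given as TPM, a gene's reads divided by its length and scaled so that every library has the same total. Changes are log2 fold changes with their standard error (SE) from edgeR's quasi-likelihood test with Benjamini-Hochberg adjustment over the 17720 genes kept, and a gene is called changed at an adjusted p under 0.05. The paper's figure legends describe the RNA-seq data as representative of 3 individual experiments, while the labels give only a replicate number. The p-values measure the spread between the 3 libraries of a condition, and how separately these were grown is not stated. In such bulk RNA, fewer cells making a chemokine and less of its RNA per cell cannot be told apart.

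Of the 9 genes, 7 lie on chromosome 17 of GRCh38. CCL2 (ENSG00000108691, chr17:34255218-34257203, plus strand), CCL7 (ENSG00000108688, chr17:34270221-34272242, plus strand) and, further along, CCL1 (ENSG00000108702, chr17:34360328-34363231, minus strand) lie in the same stretch. CCL5 (ENSG00000271503, chr17:35871491-35880793, minus strand), CCL23 (ENSG00000274736, chr17:36013056-36017968, minus strand), CCL3 (ENSG00000277632, chr17:36088256-36090169, minus strand) and CCL4 (ENSG00000275302, chr17:36103590-36105621, plus strand) lie in a second stretch. CCL20 (ENSG00000115009) lies apart at chr2:227813842-227817564 on the plus strand and CCL22 (ENSG00000102962) at chr16:57358772-57366190 on the plus strand.

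The 250 bases before the RefSeq start (GRCh38.p14) are printed for 2 genes that LPS raised steeply, CCL3 and CCL20, and for 2 that it raised in at most 1 of 6 comparisons, CCL22 and CCL23, because NF-kB is a known activator of chemokine genes downstream of LPS. The windows are chr17:36090144-36090393 on the minus strand for CCL3, chr2:227813592-227813841 on the plus strand for CCL20, chr16:57358533-57358782 on the plus strand for CCL22 and chr17:36017973-36018222 on the minus strand for CCL23. All run 5′ to 3′ along the gene, and capitals mark matches to the degenerate NF-kB motif of 10 letters on either strand, with overlapping matches run together.
CCL3: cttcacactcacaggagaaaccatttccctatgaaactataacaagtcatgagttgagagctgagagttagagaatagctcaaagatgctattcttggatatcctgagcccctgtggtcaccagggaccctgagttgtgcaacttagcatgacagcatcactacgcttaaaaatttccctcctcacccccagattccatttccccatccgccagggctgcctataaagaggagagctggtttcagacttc
CCL20: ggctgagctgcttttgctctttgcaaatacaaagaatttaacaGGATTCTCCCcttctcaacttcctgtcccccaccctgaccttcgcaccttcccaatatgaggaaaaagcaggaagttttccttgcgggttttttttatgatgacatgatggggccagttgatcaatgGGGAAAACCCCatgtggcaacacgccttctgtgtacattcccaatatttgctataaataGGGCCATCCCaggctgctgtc
CCL22: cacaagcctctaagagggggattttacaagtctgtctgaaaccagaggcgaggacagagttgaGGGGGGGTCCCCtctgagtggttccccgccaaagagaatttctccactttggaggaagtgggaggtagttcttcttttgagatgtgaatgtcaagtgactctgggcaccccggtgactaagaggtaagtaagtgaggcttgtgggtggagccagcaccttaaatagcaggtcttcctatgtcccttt
CCL23: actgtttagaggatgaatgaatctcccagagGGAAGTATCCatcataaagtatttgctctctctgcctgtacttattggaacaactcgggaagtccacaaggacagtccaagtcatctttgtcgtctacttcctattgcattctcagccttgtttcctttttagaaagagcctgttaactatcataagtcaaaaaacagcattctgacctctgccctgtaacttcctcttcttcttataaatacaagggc
CCL20 held 4 such matches, at 207 to 198, 80 to 71, 79 to 70 and 21 to 12 bases before the start, while CCL3, which rose as steeply, held none in this window. CCL22 held 3 overlapping matches between 187 and 176 bases before the start and CCL23 held 1 at 219 to 210, so matches were found on both sides of the LPS response. Of the 6 members with a RefSeq window, 4 held an NF-kB match, CCL1 being the other, against 28.8% of the 34943 promoters scanned. The AP-1 motif TGANTCA was found in 1 of the 6, CCL7, against 6.59% of all promoters, and the NR4A motif AAAGGTCA in 0 of the 6 against 1.04%. A match is a description of letters and shows no binding, and a window without one shows only that these letters are not in it.

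In the basal state 1 of the 9 chemokines was abundant. CCL5, known as RANTES, ran from 228 to 572 TPM over the 18 libraries without LPS, with a median of 495. CCL23 followed at 11.5 to 44.7 TPM with a median of 23.9, and CCL22 at 10.1 to 18.0 TPM with a median of 14.4. CCL2, CCL20 and CCL3 had medians of 6.07, 5.96 and 5.46 TPM, and their ranges of 1.84 to 14.6, 3.93 to 11.6 and 3.03 to 9.32 TPM overlapped, so that no order among these 3 can be read. CCL4 was lower still at 0.686 to 2.55 TPM with a median of 1.61. CCL1 was at 0 reads in 15 of the 18 libraries and CCL7 in 10 of the 18, with 5 and 16 reads in all.

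With LPS the order of the levels was another. CCL20 and CCL4 had medians of 1346 and 1305 TPM over the 18 stimulated libraries, CCL3 of 1001 and CCL5 of 713, and the ranges of CCL20 (786 to 1815), CCL4 (972 to 1691) and CCL3 (838 to 1425) overlapped. CCL2 ran from 55.6 to 141 TPM with a median of 79.0. CCL23 and CCL22, with medians of 23.3 and 13.8 TPM, stood below the 5 others, and CCL1 and CCL7 kept the lowest medians, of 2.37 and 1.04 TPM.

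**Figure D1:**
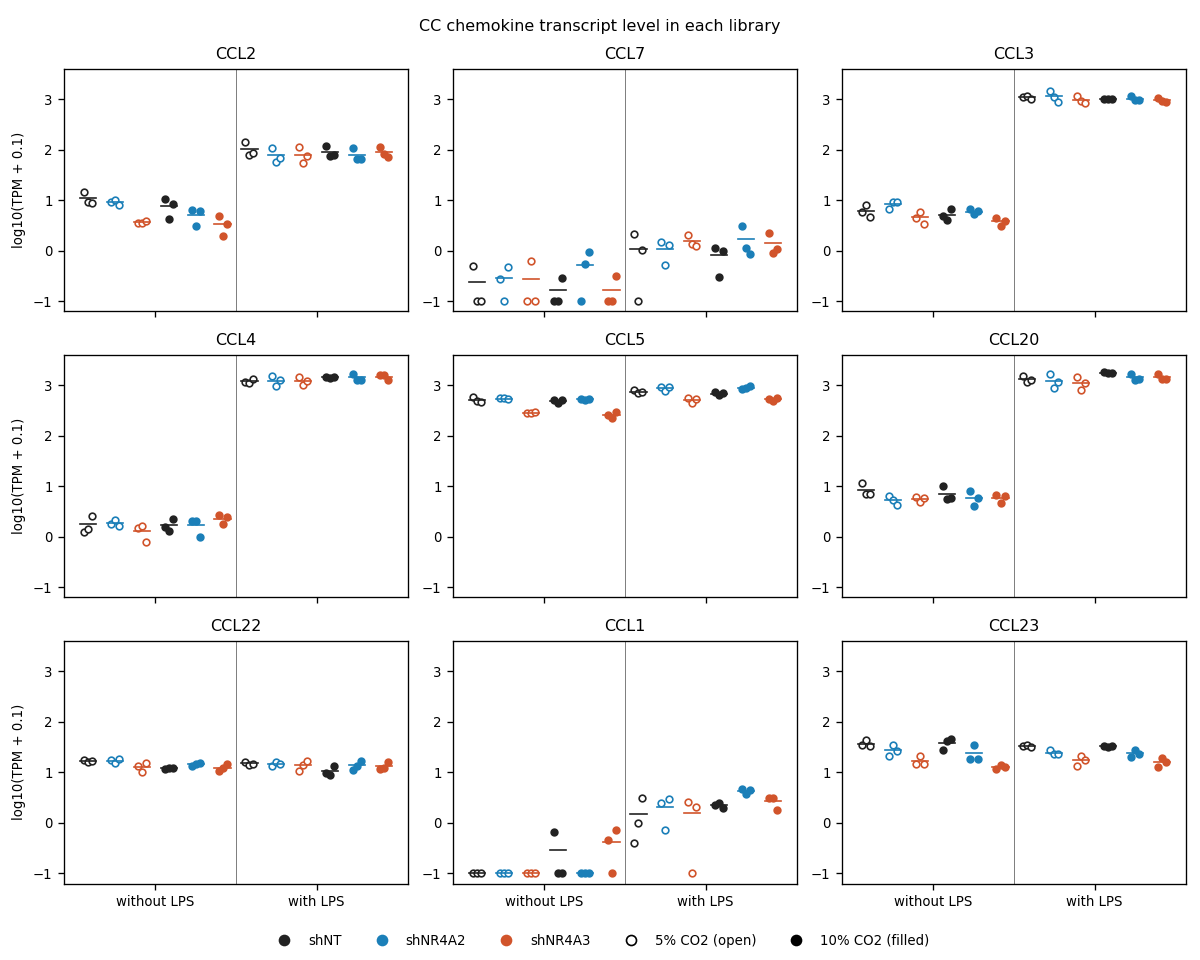
TPM of each of the 9 chemokines in each of the 36 libraries, on a log10 axis after adding 0.1 TPM, with 1 panel a gene, points for single libraries, short lines for the mean of a condition and the 12 conditions along the x axis. The stimulated libraries of CCL3, CCL4 and CCL20 sit between 786 and 1815 TPM, above all unstimulated ones. Those of CCL22 and CCL23 overlap the unstimulated ones.

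To see what LPS did to each chemokine, stimulated libraries were set against basal ones within each line and CO2 level, which gave 6 comparisons. CCL7 had too few reads to be kept for the test, and 8 of the 9 genes were tested. CCL1 passed the filter through its stimulated libraries alone, with 5 reads over the 18 basal ones. Its rise was therefore favoured by the filter and adds no support to the counts of called members. CCL1, CCL2, CCL3, CCL4, CCL5 and CCL20 rose in all 6 comparisons, and CCL22 and CCL23 rose in 1 of them, shNR4A3 at 10% CO2. The called members were thus 6, 6, 6, 6, 6 and 8 of 8, in the order shNT, shNR4A2 and shNR4A3 with 5% before 10% CO2 in each, and all were higher with LPS. Over all genes tested, 11.2%, 15.1%, 8.91%, 16.5%, 11.9% and 20.6% were called higher in these comparisons. Leaving CCL1 aside, the log2 fold changes lay between 7.36 and 10.2 for CCL3, CCL4 and CCL20 and between 3.36 and 5.11 for CCL2. They lay between 0.74 and 1.30 for CCL5 and between 0.04 and 0.58 for CCL22 and CCL23. The median of all genes tested lay between -0.0145 and 0.00333.

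CCL4, CCL20 and CCL3, which bring in monocytes and T cells, CCR6-bearing cells and CCR1-bearing leukocytes, showed the steepest rises. In shNT cells at 5% CO2, CCL4 was at 1.12, 1.33 and 2.53 TPM in the 3 basal libraries and at 1143, 1107 and 1323 TPM in the 3 stimulated ones. No stimulated library came near a basal one, and the log2 fold change was 9.71 (SE 0.19, adjusted p = 2.9e-13, edgeR), or 838-fold. Over the 6 comparisons the CCL4 rise ranged from 820-fold in shNR4A3 cells at 10% CO2 to 1193-fold in the same cells at 5% CO2. These folds rest on 35 to 74 basal reads a condition summed over its libraries.

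CCL20, the only ligand of this family for CCR6, went from 11.6, 6.82 and 6.94 TPM to 1540, 1137 and 1272 TPM in shNT cells at 5% CO2. The log2 fold change was 7.49 (SE 0.22, adjusted p = 8.77e-09, edgeR), or 180-fold, and in the other 5 comparisons the rise was 238-fold to 306-fold. The groups did not overlap in any of the 6. Replicate 1 held the highest CCL20 level in 11 of the 12 conditions. With the replicate number as a block in the fit, CCL20 was still called higher in all 6 comparisons.

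CCL3 stood at 5.76, 7.80 and 4.46 TPM in basal shNT cells at 5% CO2 and at 1098, 1169 and 990 TPM after LPS. That is a log2 fold change of 7.72 (SE 0.15, adjusted p = 8.01e-15, edgeR), or 212-fold, and the smallest of the 6 rises was 164-fold in shNR4A2 cells at 5% CO2 and the largest 313-fold in shNR4A3 cells at 10% CO2. As for CCL4 and CCL20, every stimulated library lay above every basal one.

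CCL3 and CCL4 each have a near-identical copy in the annotation, CCL3L3 and CCL4L2, and the authors' counting kept reads with 1 placement only, so that the split between a gene and its copy is uncertain. Both copies rose with LPS in all 6 comparisons, CCL3L3 by 6.26 to 7.17 and CCL4L2 by 9.37 to 9.72 on the log2 scale. CCL3L3 took 65.1% of the reads of the CCL3 pair in basal shNT cells at 5% CO2 and 44.4% after LPS. Over the 6 basal conditions its mean share lay between 59.3% and 72.7%, and over the 6 stimulated ones between 39.8% and 46.7%, with no overlap. The share of CCL4L2 in its pair was 45.9% to 61.6% without LPS, where reads were few, and 41.7% to 47% with it. Adding each copy's reads to its gene before the test left all calls of CCL3 and CCL4 in the 6 LPS comparisons in place.

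**Figure D2:**
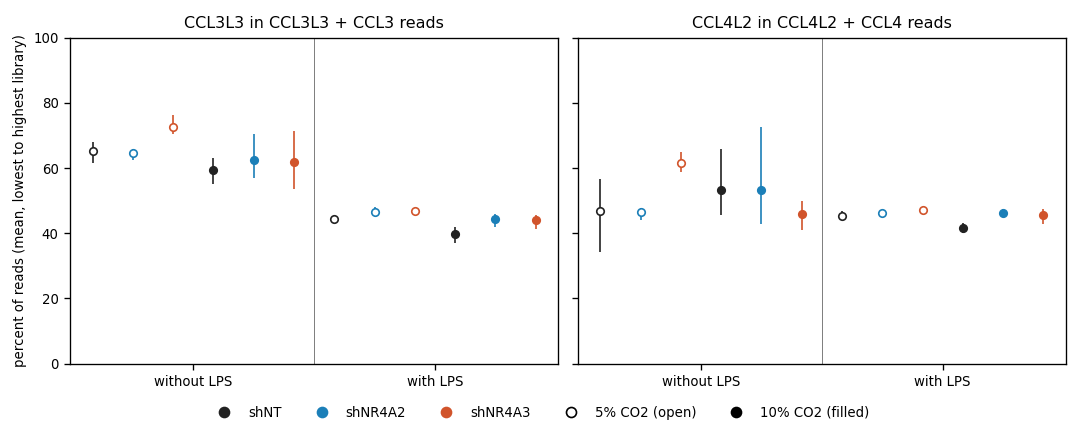
Share of the copy in the reads of each pair, in percent, with CCL3L3 of CCL3 plus CCL3L3 and CCL4L2 of CCL4 plus CCL4L2, with points for the mean of the 3 libraries of each of the 12 conditions and bars from the lowest to the highest library. The mean share of CCL3L3 lies at 59.3% to 72.7% without LPS and at 39.8% to 46.7% with it.

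The monocyte attractants CCL2 and CCL7 lie next to each other on chromosome 17. CCL2 was at 14.6, 9.12 and 8.62 TPM in basal shNT cells at 5% CO2 and at 141, 80.1 and 85.9 TPM with LPS. All stimulated libraries were above the basal ones, and CCL2 rose by 3.46 on the log2 scale (SE 0.32, adjusted p = 0.000468, edgeR), or 11-fold. The rise was 14.1-fold in shNT cells at 10% CO2, 10.2-fold and 19-fold in shNR4A2 cells at 5% and 10%, and 26.5-fold and 34.5-fold in shNR4A3 cells. CCL2 was highest in replicate 1 in 10 of the 12 conditions.

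CCL7 gave 16 reads over all 18 basal libraries and 102 over the 18 stimulated ones, so its folds carry wide counting intervals. In shNT cells at 5% CO2 it had 2, 0 and 0 reads without LPS and 10, 0 and 5 with it, a ratio of 6.97 (exact 95% interval 1.62 to 62.9, which covers counting error only). The ratios in the 6 comparisons ran from 3.3 (1.37 to 9.1) in shNR4A2 cells at 10% CO2 to 19.4 (3.09 to 807) in shNR4A3 cells at 10% CO2. Every interval lay above 1, but in shNT and shNR4A2 cells the reads of single libraries overlapped or tied between the states, while in shNR4A3 cells they did not.

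CCL1, a ligand of CCR8 on T cells, was nearly silent without LPS. It had 0 reads in each basal library of shNT cells at 5% CO2 and 1, 3 and 11 reads after LPS, at least 4.65-fold higher when the basal level is set to a floor of 3 reads over the group. The basal groups of shNR4A2 cells at both CO2 levels and of shNR4A3 cells at 5% CO2 were also at 0 reads, and the bounds there were at least 7.22-fold, 14.4-fold and 4.64-fold. In shNT cells at 10% CO2 the ratio was 11.2 (exact 95% interval 2.75 to 98) and in shNR4A3 cells at 10% CO2 8.86 (2.72 to 45.8). The call in shNT cells at 5% CO2 was lost without any 1 of the 3 basal libraries or without stimulated replicate 3 (adjusted p 0.0571 to 0.169, edgeR). In shNR4A3 cells at 5% CO2, where one stimulated library had 0 reads, it was lost in 5 of the 6 repeats that each left out a library (adjusted p 0.0773 to 0.127).

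CCL5, which was high before stimulation, rose by the smallest factor among the 6. In shNT cells at 5% CO2 it was at 572, 485 and 456 TPM in the basal state and at 800, 704 and 729 TPM with LPS. The groups were apart, with a log2 fold change of 0.78 (SE 0.10, adjusted p = 2.39e-05, edgeR), or 1.72-fold. Across the 6 comparisons the CCL5 rise lay between 1.68-fold in shNT cells at 10% CO2 and 2.46-fold in shNR4A3 cells at 10% CO2, and no group overlapped its control.

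CCL22 and CCL23 showed little movement. CCL22, made by macrophages and dendritic cells, was at 17.7, 15.8 and 17.0 TPM in basal shNT cells at 5% CO2 and at 15.9, 14.0 and 14.8 TPM with LPS. CCL23 was at 34.8, 42.6 and 33.5 TPM against 32.4, 35.2 and 31.4 TPM. These groups overlapped, and on the scale of the test, which also evens out composition, the log2 fold changes were 0.05 (95% interval -0.21 to 0.32, adjusted p = 0.816) and 0.06 (-0.28 to 0.40, adjusted p = 0.845, edgeR). In shNR4A3 cells at 10% CO2, CCL22 was called 1.31-fold higher (log2 fold change 0.39, SE 0.14, adjusted p = 0.0392) and CCL23 1.5-fold higher (0.58, SE 0.20, adjusted p = 0.0344, edgeR), although the libraries of both overlapped. Both of these calls were lost with DESeq2 (adjusted p = 0.0764 and 0.115), without the filter on low counts (0.062 and 0.0869), in 1 fit to all 36 libraries (0.0549 and 0.0525) and with scaling by library size only (0.475 and 0.214). That last scaling moved the median log2 fold change of all genes in the LPS comparisons to between -0.18 and -0.25, while the calls of CCL2, CCL3, CCL4, CCL5 and CCL20 held under it.

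**Figure D3:**
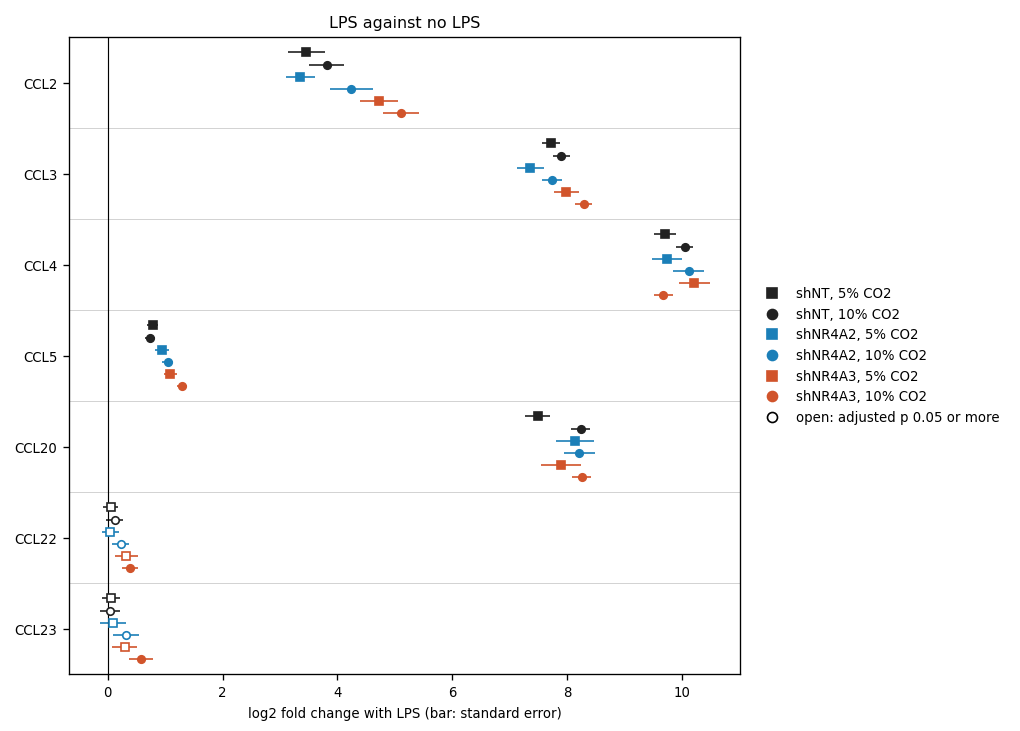
Log2 fold change of 7 chemokines with LPS against without, in the 6 combinations of line and CO2 level, with the standard error as bars and open points for an adjusted p of 0.05 or more. CCL1 and CCL7, at few reads, are not drawn. CCL3, CCL4 and CCL20 lie between 7.36 and 10.2, CCL2 between 3.36 and 5.11, CCL5 between 0.74 and 1.30, and CCL22 and CCL23 between 0.04 and 0.58.

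Receptors of these ligands and related receptors were looked at beside them. CCR1, CCR2 and the scavenger receptor ACKR2 fell with LPS in all 6 comparisons, and CCRL2 rose in all 6. CCR2, the receptor of CCL2 and CCL7, averaged 185 TPM in basal shNT cells at 5% CO2 and 13.0 TPM with LPS, and its log2 fold change lay between -4.77 and -3.38. CCR1, which binds CCL3, CCL5 and CCL23, went from 82.0 to 11.4 TPM there and changed by -2.63 to -2.32. The rise of CCRL2, a protein related to the chemokine receptors, was 2.16 to 4.78. Of 15 other CC ligands 4 were tested. In each comparison the monocyte attractant CCL8 rose (4.85 to 7.01, SE 0.48 to 0.78) and the mucosal ligand CCL28 fell (-1.30 to -0.57).

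Whether elevated CO2 altered the chemokines was asked by comparing 10% with 5% CO2 within each line and LPS state. CCL4 and CCL20 were higher at 10% CO2 in LPS-stimulated shNT cells, and these were the only members called in any of the 6 comparisons. They are 2 of the 8 members tested, while 4.47% of all genes tested were called higher and 3.72% lower in that comparison. The median log2 difference of the 8 members, among them CCL1 with its few basal reads, lay between -0.14 and 0.14 in the 6 comparisons.

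CCL20 with LPS was at 1540, 1137 and 1272 TPM at 5% CO2 and at 1815, 1754 and 1732 TPM at 10% CO2 in shNT cells. All 3 libraries at 10% were above those at 5%, with a log2 fold change of 0.56 (SE 0.11, adjusted p = 0.0177, edgeR), or 1.47-fold. CCL4 went from 1143, 1107 and 1323 to 1435, 1404 and 1445 TPM, again without overlap, with a log2 fold change of 0.39 (SE 0.09, adjusted p = 0.0173), or 1.31-fold. CCL3 was at 1098, 1169 and 990 TPM against 1009, 1021 and 993 TPM, and its log2 difference was 0.03 (95% interval -0.12 to 0.19). Its copy CCL3L3 was called lower there by 0.24. The copy of CCL4, CCL4L2, differed by 0.17 (95% interval -0.01 to 0.36, adjusted p = 0.229), and with the reads of CCL4 and its copy summed the difference was 0.29 (adjusted p = 0.0461). The CCL4 call was lost without 5% CO2 + LPS replicate 1 (adjusted p = 0.0766) or replicate 2 (0.0683) or without 10% CO2 + LPS replicate 2 (0.081), and the CCL20 call without this last library (0.0713). In 1 fit to all 36 libraries neither was called (adjusted p = 0.187 for CCL4 and 0.163 for CCL20).

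In the knockdown lines the CO2 differences of these genes with LPS were not called. CCL20 differed by 0.27 (95% interval -0.40 to 0.93) in shNR4A2 cells and by 0.41 (-0.25 to 1.07) in shNR4A3 cells, and CCL4 by 0.25 (-0.22 to 0.72) and 0.29 (-0.09 to 0.67). The test of the difference between lines called 0 genes with LPS by edgeR in either line and 0 by DESeq2. By edgeR the unadjusted p was under 0.05 for 458 genes in shNR4A2 and 370 in shNR4A3 cells, with no member among them. For CCL20 the difference from shNT was -0.27 (95% interval -1.06 to 0.52) in shNR4A2 and -0.13 (-0.86 to 0.60) in shNR4A3 cells. These intervals include no difference as well as a full loss of the CCL20 response of shNT cells. For CCL4 the intervals were -0.70 to 0.45 and -0.55 to 0.38. In shNT cells the CO2 difference of CCL20 was 0.74 greater with LPS than without (95% interval 0.05 to 1.44), which did not pass the adjustment (adjusted p = 0.818, edgeR), where 0.0226% of genes did.

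In the basal state no member was called in any line, where 0.615%, 0.0113% and 1.13% of all genes were called in shNT, shNR4A2 and shNR4A3 cells, and none with LPS in shNR4A2 (0.198% of genes) or shNR4A3 cells (2.13%). For CCL1, with 5 reads over the 18 basal libraries, the lack of a basal call shows nothing. By edgeR, 1 member in each of the 3 basal comparisons had an unadjusted p under 0.05, and 0 in the stimulated knockdown lines, and DESeq2 called no member in these 5 comparisons. CCL22 in basal shNT cells was at 17.7, 15.8 and 17.0 TPM at 5% CO2 and at 11.7, 11.8 and 12 TPM at 10%. These libraries did not overlap, but the log2 difference of -0.42 (SE 0.13) had an adjusted p of 0.157. CCL2 in basal shNR4A2 cells (-0.78, SE 0.26, adjusted p = 0.441) and CCL4 in basal shNR4A3 cells (0.87, SE 0.37, adjusted p = 0.249) were likewise apart between the CO2 levels without passing the test. CCL5, the most abundant of them in the basal state, differed by 0.05, 0.0032 and -0.10 between the CO2 levels in basal shNT, shNR4A2 and shNR4A3 cells, and its widest 95% interval there ran from -0.23 to 0.23.

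**Figure D4:**
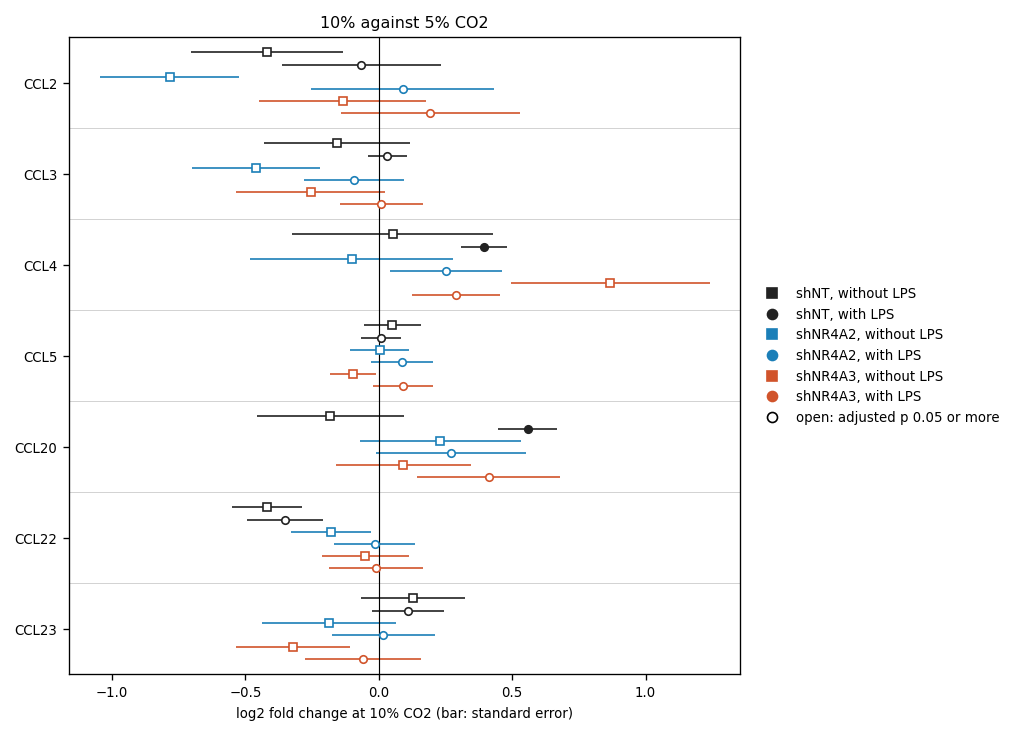
Log2 fold change of 7 chemokines at 10% against 5% CO2 in the 3 lines without and with LPS, with the standard error as bars and filled points for calls. CCL4 and CCL20 in stimulated shNT cells, at 0.39 and 0.56, are the called members.

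To see whether depletion of a receptor went with other chemokine levels, each knockdown line was set against shNT cells within a CO2 level and LPS state. In shNR4A3 cells CCL5 and CCL23 were lower in all 4 comparisons, CCL2 was lower in both basal ones and CCL20 was lower with LPS at 10% CO2. The called members numbered 3 and 3 of 8 in the basal state at 5% and 10% CO2 and 2 and 3 with LPS, each of them lower, while 2.83%, 3.35%, 2.17% and 7.21% of all genes were called lower. The median log2 difference of the 8 members was -0.49 and -0.40 in the basal state and -0.13 and -0.07 with LPS. In the basal comparisons of both knockdown lines the 8 include CCL1, which had too few reads there to show a difference. The line and the shRNA cannot be told apart here, since each shRNA was in 1 line.

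CCL5 was at 572, 485 and 456 TPM in basal shNT cells at 5% CO2 and at 279, 281 and 293 TPM in basal shNR4A3 cells. At 10% CO2 it was at 508, 453 and 517 TPM against 261, 228 and 298 TPM. In both, every shNR4A3 library lay below every shNT library, and CCL5 was 1.72-fold lower (log2 difference -0.78, SE 0.10, adjusted p = 0.000169, edgeR) and 1.92-fold lower (-0.94, SE 0.10, adjusted p = 5.18e-06). With LPS, CCL5 was at 556, 449 and 544 TPM in shNR4A3 cells at 5% CO2 against 800, 704 and 729 TPM, a 1.38-fold lower level (-0.47, SE 0.11, adjusted p = 0.0386). At 10% CO2 with LPS it was 1.3-fold lower (-0.38, SE 0.08, adjusted p = 0.00428). The call at 5% CO2 with LPS was lost in 4 of the 6 repeats that left out 1 library (adjusted p 0.0593 to 0.118).

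CCL23, a CCR1 ligand of myeloid cells, was at 34.8, 42.6 and 33.5 TPM in basal shNT cells at 5% CO2 and at 14.3, 20.5 and 14.6 TPM in shNR4A3 cells. At 10% CO2 the values were 27.2, 42.4 and 44.7 against 11.5, 14.1 and 12.9 TPM. The lines did not overlap, and CCL23 was 2.18-fold lower (log2 difference -1.12, SE 0.20, adjusted p = 0.00267, edgeR) and 3-fold lower (-1.58, SE 0.21, adjusted p = 8.12e-05). With LPS it was 1.84-fold lower at 5% CO2 (-0.88, SE 0.18, adjusted p = 0.0144) and 2.06-fold lower at 10% (-1.04, SE 0.17, adjusted p = 0.00142). The former call was lost in 3 of the 6 repeats without 1 library (adjusted p 0.0541 to 0.0647). Over its 12 libraries shNR4A3 ran from 11.5 to 20.8 TPM and shNT from 27.2 to 44.7 TPM.

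CCL2 was at 14.6, 9.12 and 8.62 TPM in basal shNT cells at 5% CO2 and at 3.41, 3.42 and 3.81 TPM in basal shNR4A3 cells, 2.94-fold lower and without overlap (log2 difference -1.55, SE 0.25, adjusted p = 0.000993, edgeR). At 10% CO2 it was at 10.4, 4.20 and 8.13 against 4.70, 1.84 and 3.22 TPM, where the lines overlapped and the difference of -1.29 (SE 0.36) had an adjusted p of 0.0473. That call was lost with RLE scaling (adjusted p = 0.0501), in 1 fit to all 36 libraries (0.146) and in 4 of 6 repeats without 1 library (0.0900 to 0.183), and the call at 5% CO2 in the fit to all 36 libraries (0.0568). With LPS, CCL2 was at 111, 55.6 and 73.7 TPM in shNR4A3 cells at 5% CO2 against 141, 80.1 and 85.9 TPM. The log2 differences with LPS of -0.28 (95% interval -1.14 to 0.57) at 5% and -0.02 (-0.64 to 0.60) at 10% CO2 were not called, but same-numbered libraries deviated together in the former comparison, and with the replicate number as a block CCL2 was called lower there too (-0.30, adjusted p = 0.0115), which made 3 called members.

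CCL20 in stimulated cells at 10% CO2 was at 1815, 1754 and 1732 TPM in shNT and at 1650, 1350 and 1342 TPM in shNR4A3 cells, 1.24-fold lower (log2 difference -0.31, SE 0.10, adjusted p = 0.0496, edgeR). The libraries did not overlap, but the call was lost with RLE scaling (adjusted p = 0.0555), with a filter at 1 CPM (0.0656), in 1 fit to all 36 libraries (0.438) and in 5 of 6 repeats without 1 library. CCL3 and CCL4, whose stimulated levels were as high, were not called in any of the 4 comparisons, with log2 differences with LPS of -0.10 and 0.10 at 5% CO2 and -0.12 and 0.0012 at 10% CO2. CCL22 differed by -0.33 to 0.30 and was not called.

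In shNR4A2 cells, CCL5 was higher and CCL23 lower than in shNT cells with LPS at 10% CO2, and these were the 2 members called without a block for the replicate number, where 9.29% of all genes were called higher and 9.58% lower. In the other 3 comparisons 0 of 8 members were called by edgeR without the block (1, 2 and 1 at an unadjusted p under 0.05 for 5% basal, 5% with LPS and 10% basal), where 5.69%, 6.21% and 7.95% of all genes were called, and DESeq2 called 0 members there. CCL5 was at 722, 627 and 702 TPM in stimulated shNT cells at 10% CO2 and at 856, 881 and 942 TPM in shNR4A2 cells, 1.28-fold higher without overlap (log2 difference 0.36, SE 0.08, adjusted p = 0.00546). CCL23 was at 33.0, 31.3 and 32.8 against 20.4, 28.1 and 23.3 TPM, 1.39-fold lower (-0.47, SE 0.15, adjusted p = 0.0425). This CCL23 call was lost with scaling by library size only (adjusted p = 0.058), with DESeq2 (0.0964), in 1 fit to all 36 libraries (0.118) and in 5 of 6 repeats without 1 library (0.0926 to 0.131). CCL23 also had values below 0 in the other comparisons of shNR4A2 with shNT cells, -0.43, -0.38 and -0.75, of which the last, in the basal state at 10% CO2, had an adjusted p of 0.0514.

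The libraries of shNR4A2 and shNT cells at 5% CO2 that bear the same replicate number deviated together, and a block for that number changed the calls there. In the basal state at 5% CO2, CCL20 (6.19, 5.25 and 4.17 TPM against 11.6, 6.82 and 6.94 TPM in shNT cells) was then called lower by 0.70 (adjusted p = 0.0277) and CCL23 by 0.44 (adjusted p = 0.0405). With LPS at 5% CO2, CCL2 was called lower by 0.36 (adjusted p = 0.000278) and CCL5 higher by 0.27 (adjusted p = 0.00203, edgeR). Without the block the log2 differences of these 4 were about the same, -0.71, -0.43, -0.34 and 0.28, and none was called. With LPS at 10% CO2 the same-numbered libraries deviated together over genes at a mean of 10 CPM or more (correlations 0.607, 0.465 and 0.347), though not over all genes tested (0.325, 0.237 and 0.0694). The block called 5 members there, CCL2 (-0.22, adjusted p = 0.0116), CCL20 (-0.36, adjusted p = 0.00259) and CCL23 (-0.48, adjusted p = 0.00663) lower and CCL5 (0.36, adjusted p = 8.99e-07) and CCL22 (0.34, adjusted p = 0.0131) higher.

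**Figure D5:**
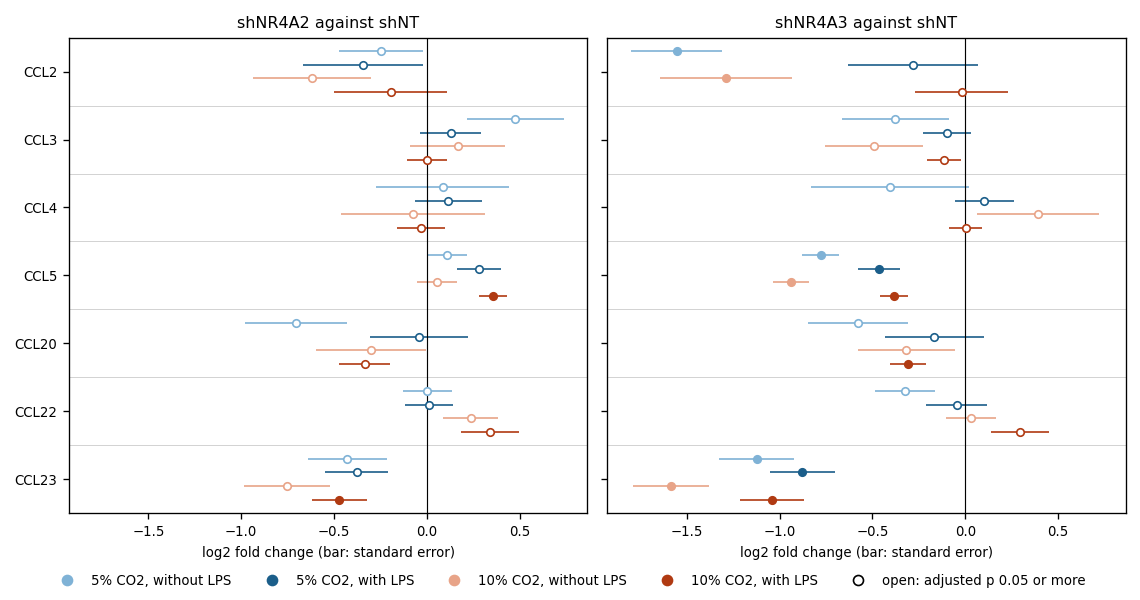
Log2 difference of 7 chemokines between a knockdown line and shNT cells, in the 4 combinations of CO2 level and LPS state, with the standard error as bars and filled points for calls. In shNR4A3 cells CCL23 lies between -1.58 and -0.88 and CCL5 between -0.94 and -0.38, all below 0.

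CCL2 was called lower in shNR4A3 cells in the basal state and, without the block, not with LPS, so the difference between the LPS responses of the lines was tested itself. Its stimulated levels ran from 74.0 to 141 TPM over the 6 libraries of shNT cells, from 56.0 to 107 TPM in shNR4A2 and from 55.6 to 113 TPM in shNR4A3 cells, while the basal ones ran from 4.20 to 14.6, from 3.04 to 10.1 and from 1.84 to 4.70 TPM. The test of whether the LPS response differed from that of shNT cells gave 1.28 for CCL2 in shNR4A3 cells at 5% CO2 (95% interval 0.05 to 2.50) and 1.28 at 10% CO2 (0.04 to 2.53), with adjusted p of 1.00 and 0.619 (edgeR). For CCL5 it gave 0.31 (-0.03 to 0.66) and 0.55 (0.29 to 0.80), the latter with an adjusted p of 0.0919. With the replicate number as a block edgeR called CCL2 at both CO2 levels (1.24, adjusted p = 0.016, and 1.25, adjusted p = 0.0069) and CCL5 at 10% CO2 (0.55, adjusted p = 0.00171). Without the block no member was called by edgeR in the 4 comparisons of this kind, where 0%, 0.0451%, 0% and 0.198% of genes were called and 0, 1, 1 and 2 members had an unadjusted p under 0.05, in the order shNR4A2 at 5% and 10% and shNR4A3 at 5% and 10% CO2. The CCL5 value at 10% CO2 was called by DESeq2 (adjusted p = 0.00893) and without the filter on low counts (0.00643).

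Genes whose log2 CPM followed each member most closely over the 36 libraries were looked up as a description, since these libraries share 12 conditions. CCL3 went most closely with NFKBIZ and IL1B (Pearson's r 0.997 and 0.996), CCL2 with DUSP16 and TNF (0.986 and 0.982) and CCL20 with NCOA7 among named genes (0.996). CCL4 went most closely with its copy CCL4L2 (0.997), and ENSG00000112096, which had no symbol in the table used, stood beside both CCL4 and CCL20 (0.997 and 0.996). The closest genes of CCL5, ENSG00000225107 and ENSG00000253123 (0.959 and 0.941), had no symbol either. CCL1, at few reads, went with ADO and UGP2 (0.945 and 0.938). CCL23 went with CKAP4 and with CTSG, a granule protease of myeloid precursors (0.917 and 0.901), and CCL22 with COPG1 and BAMBI at lower values (0.769 and 0.742).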

How the data were processed

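RNA was sequenced from 36 libraries, 3 for each of 12 conditions given by the labels. Per the authors' methods and the submitters' processing notes, reads were trimmed with Trimmomatic 0.36, aligned to GRCh38 with STAR 2.5.2b and assigned to genes with featureCounts (Subread 1.5.2), keeping unique hits; the strand setting and annotation release are not given in the sources used here. The deposited values are raw counts per gene with each gene's length, 1 file a library. Overlapping genes on opposite strands can share reads.

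Identifiers were matched to symbols for 56410 of 57500 genes (98.1%). TPM values came from dividing the deposited counts by the deposited gene lengths. Genes were kept by edgeR's filterByExpr (minimum count 10, minimum total 15) over all libraries, which left 17720 genes and 8 of the 9 members. Each comparison was fitted to its own libraries (6, or 12 for a difference of differences) with TMM factors and edgeR 4.0.16 (glmQLFit with robust fitting, glmQLFTest) in R 4.3.3, and p-values were adjusted over all genes kept. The 31 comparisons were 6 of LPS, 6 of CO2, 8 of knockdown and 11 interactions. An exact permutation test of 3 against 3 libraries cannot go below 0.1 and was not used. CCL1 and CCL7 were given as ratios of summed reads with exact 95% intervals, or against a floor of 3 reads. The scripts were tested on simulated data. Libraries of a condition differed by more than sampling noise (chi-square per degree of freedom 6.62 to 29.6), so none was counted as a repeat.

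The named genes were the 9 members, NR4A2 and NR4A3, the copies of CCL3 and CCL4, up to 6 other CC ligands and receptors with the highest mean TPM, and the 2 genes most correlated with each member over log2 CPM (prior count 2). Members and lists were chosen with earlier results of these data known. Same-numbered libraries were taken as paired where the correlation of their deviations from the condition means was over 0.1 in all 3 pairs, which held in 7 of 20 comparisons of 6 libraries over all genes tested and in 13 of 20 over genes at a mean of 10 CPM or more; the pairing comes from the data, as the labels give only a number. Alternatives were RLE factors, library size only, DESeq2 1.42.0, no filter, a filter at 1 CPM, the replicate block, 1 fit to all 36 libraries, summing of copies and leaving out each library. Promoter windows came from RefSeq (GRCh38.p14), in which 6 of the 9 members matched; CCL2, CCL4 and CCL5 are not printed. One receptor is not reported here.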

Additional observations from a re-analysis of the deposited data

How the results depend on the processing

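No value of a single called member changed its direction under any alternative, and values that were not called were not checked for this. Of the results that count called members, 232 alternatives other than leaving out a library stayed within 1.5 times of the value given and 16 did not, and of the values of single called members 397 kept the call and 19 lost it; for repeats without a library the numbers were 237 and 15, and 276 and 42. In the CO2 comparison of stimulated shNT cells the 2 called members became 0 in 1 fit to all 36 libraries and 0 to 2 without a library. In stimulated shNR4A3 cells 1 member, CCL4, was called for CO2 without the filter on low counts (adjusted p = 0.043), and without it CCL20 was the 1 member called in the CO2 by LPS test of shNT cells (adjusted p = 0.0355). For shNR4A2 against shNT cells, basal at 10% CO2, 1 member, CCL23, was called without the filter (adjusted p = 0.00687) and in 1 fit to all 36 libraries (0.0146), and 0 to 1 without a library. With LPS at 5% CO2 the range without a library was 0 to 1, the 1 arising without shNR4A2 replicate 2. With LPS at 10% CO2 the 2 became 1 with library size only, with DESeq2 and in the fit to all 36 libraries, and 1 to 3 without a library, the 1 arising without any shNT library or shNR4A2 replicate 3. For shNR4A3 against shNT cells with LPS at 5% CO2 the 2 became 0 to 2, the 0 arising without shNT replicate 2 or shNR4A3 replicate 3 and the 1 without shNT replicates 1 or 3 or shNR4A3 replicate 1. In the test of the LPS response of shNR4A3 cells at 10% CO2, 1 member, CCL5, was called by DESeq2 and without the filter. The cause of these changes was not tested. Depth limits CCL1 and CCL7, and the basal levels of CCL4, which rest on few reads.

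With the replicate block, the called members of shNR4A2 against shNT cells were 2 in the basal state and 2 with LPS at 5% CO2, where the pairing held, and 1 and 5 at 10% CO2, where it held over genes at a mean of 10 CPM or more with LPS and not in the basal state. The test of the LPS response of shNR4A3 cells called 1 member with the block at 5% CO2, CCL2 (1.24, adjusted p = 0.016), and 2 at 10% CO2, CCL2 (1.25, adjusted p = 0.0069) and CCL5 (0.55, adjusted p = 0.00171). The pairing was not checked for this test. In the other comparisons the block moved no count of called members by over 1.5 times.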

Other observations

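Among the other genes of the family, receptors and ligands also differed between the knockdown lines and shNT cells. CCR1, the receptor of CCL3, CCL5 and CCL23, was higher in shNR4A3 cells in all 4 comparisons, by 0.74 (SE 0.18, adjusted p = 0.0426, edgeR) and 0.70 (SE 0.13, adjusted p = 0.00296) on the log2 scale in the basal state at 5% and 10% CO2 and by 1.00 (SE 0.21, adjusted p = 0.0235) and 0.85 (SE 0.13, adjusted p = 0.000849) with LPS. In shNR4A2 cells it was higher in 3 of 4, and the value in the basal state at 5% CO2 was 0.71 (SE 0.21, adjusted p = 0.0756). CCL28, an epithelial and mucosal ligand, was lower in shNR4A2 cells in 3 of 4 comparisons, by 0.58 and 0.61 in the basal state and 0.92 with LPS at 10% CO2, and in shNR4A3 cells with LPS at 10% CO2 by 0.80. CCL24, known as eotaxin-2, was called in 1 of the 8 comparisons, higher by 0.89 in stimulated shNR4A2 cells at 10% CO2 (adjusted p = 0.0248). CCRL2 was called higher in stimulated shNR4A3 cells at 10% CO2, by 0.93 (adjusted p = 0.0228). CCR7 and CCL25, of low level and named after their values were seen, were called too. CCR7, which guides cells to lymph nodes, was higher with LPS in both knockdown lines, by 1.71 and 1.20 in shNR4A2 cells at 5% and 10% CO2 (adjusted p = 0.0139 and 0.0257) and by 1.59 and 2.07 in shNR4A3 cells (adjusted p = 0.0286 and 0.00124). CCL25 was lower by 1.99 in stimulated shNR4A2 cells at 10% CO2 (adjusted p = 0.0443), on 6 against 25 summed reads. None of these genes was called in the 6 comparisons of CO2 levels.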
